A study of Bos indicus with 8 samples.

Results

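The genes described here were grouped as sensors and effectors of the unfolded protein response, the reaction of a cell to unfolded protein in the endoplasmic reticulum, and were measured in bovine blastocysts that were vitrified and warmed. They are 9 gene symbols, of which XBPP1 is without a known role here: ERN1, EIF2AK3, ATF6, XBP1, XBPP1, DDIT3, PPP1R15A, EDEM1 and CRELD2. Every array probe whose annotated symbol was one of these was taken, which gave 11 of the 43794 gene probes and covered 7 of the 9 symbols, out of 15229 symbols on the array. The annotation used here gave no probe the symbol ATF6 or XBP1, and 22004 probes carried no symbol at all, so both genes are not analysed here. The genes were chosen with their ratios of vitrified to control embryos in view. Those ratios are therefore given as values with their spread and without a test.

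The vitrified group was blastocysts of Bos indicus, produced in vitro from ovaries of slaughtered cows and collected between 144 and 156 h after insemination. Ethylene glycol and dimethylsulfoxide served as cryoprotectants, each at 7.5% for equilibration and at 15% with 0.5 M sucrose for vitrification. The embryos were plunged into liquid nitrogen on a Cryotop, a thin film strip that holds a very small volume. They stayed there for at least 30 min, were warmed in 1 M and then 0.5 M sucrose, and spent 4 h in culture. The control group was blastocysts of the same origin that were kept in holding medium at 37 °C, not cooled, and cultured for the same 4 h. Only embryos of normal appearance were kept, so embryos that did not survive warming are outside the measurement. Each pool held 10 embryos, and its RNA was amplified with T7 polymerase before labelling.

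Each vitrified pool was hybridised together with a control pool, on 8 arrays of 2 colours. The arrays formed 4 dye-swap pairs on neighbouring areas of 2 slides: pair 1 on slide 1 areas 1 and 2, pair 2 on slide 1 areas 3 and 4, pair 3 on slide 2 areas 1 and 2, and pair 4 on slide 2 areas 3 and 4. Ratios are log2 of vitrified over control, averaged within a pair so that dye bias cancels, and are given as mean ± SD with n = 4 pairs. Nothing in the labels says that the pools came from separate cultures, so the spread between pairs may be partly technical. Median raw intensity ranged from 106.5 to 153.2 in Cy5 (red) and from 149.1 to 243.3 in Cy3 (green). On 7 arrays 71.0% to 80.4% of probes were above background in the vitrified channel and 73.5% to 79.9% in the control channel. On slide 2 area 1 the shares were 29.5% for the vitrified pool and 26.2% for the control pool. That array's negative control spots, which set the limit, were spread widely, and with a limit that ignores extreme spots they were 73.6% for the vitrified and 78.7% for the control channel. The 11 genes listed as markers of the trophectoderm, the outer epithelium of the blastocyst, were all measured, as were 6 of 7 for the inner cell mass. So were 4 of 6 for the primitive endoderm, 7 of 8 for cumulus cells, 5 of 7 for the oocyte and 4 of 6 for sperm. Being measured therefore does not by itself mark a cell type.

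When unfolded protein builds up in the endoplasmic reticulum, the membrane sensors IRE1 (gene ERN1), PERK (gene EIF2AK3) and ATF6 are released from the chaperone BiP. Activated IRE1 splices the messenger RNA of the transcription factor XBP1, PERK phosphorylates the translation factor eIF2α, which favours translation of ATF4, and ATF6 is cut by Golgi proteases into a transcription factor. Their targets include chaperones, the degradation machinery of the endoplasmic reticulum and, when stress lasts, the pro-apoptotic factor CHOP (gene DDIT3). In cultured mammalian embryos, stress of the endoplasmic reticulum is known to hinder development to the blastocyst.

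Most of these probes were dim. A channel was called above background where its raw log2 intensity exceeded the mean plus 2 SD of 153 negative control spots. The probes of EIF2AK3 and XBPP1 and EDEM1 probe EMBV3_13635 were above that limit on all 8 arrays in both channels. ERN1 passed on 6 arrays in each channel, and PPP1R15A passed on 7 vitrified and 6 control channels. The median distance from the limit was 0.06 log2 units for ERN1, 0.15 for CRELD2 and 0.21 for PPP1R15A. For XBPP1 it was 6.32. The ratios of ERN1, CRELD2 and PPP1R15A thus rest on signal close to the background. All 11 probes passed the filter used for the tests, which asks for 4 arrays above background in either condition.

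Of the 11 probes, 5 had a mean ratio above 0 and 6 below 0. In all 4 pairs, 3 probes lay above 0, those of XBPP1, EIF2AK3 and CRELD2, and 6.96% of the 34906 tested probes did so. None lay below 0 in all 4 pairs, against 6.62% of tested probes. On all 8 arrays, XBPP1 alone lay above 0 (1.25% of tested probes) and none lay below 0 (1.62%). The probes were chosen from this contrast, so their counts say nothing beyond that choice. Over all tested probes, limma called 0 at an adjusted p under 0.05 (0.00%), the lowest adjusted p being 0.503, and 2475 probes passed an unadjusted p of 0.05.

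**Figure D1:**
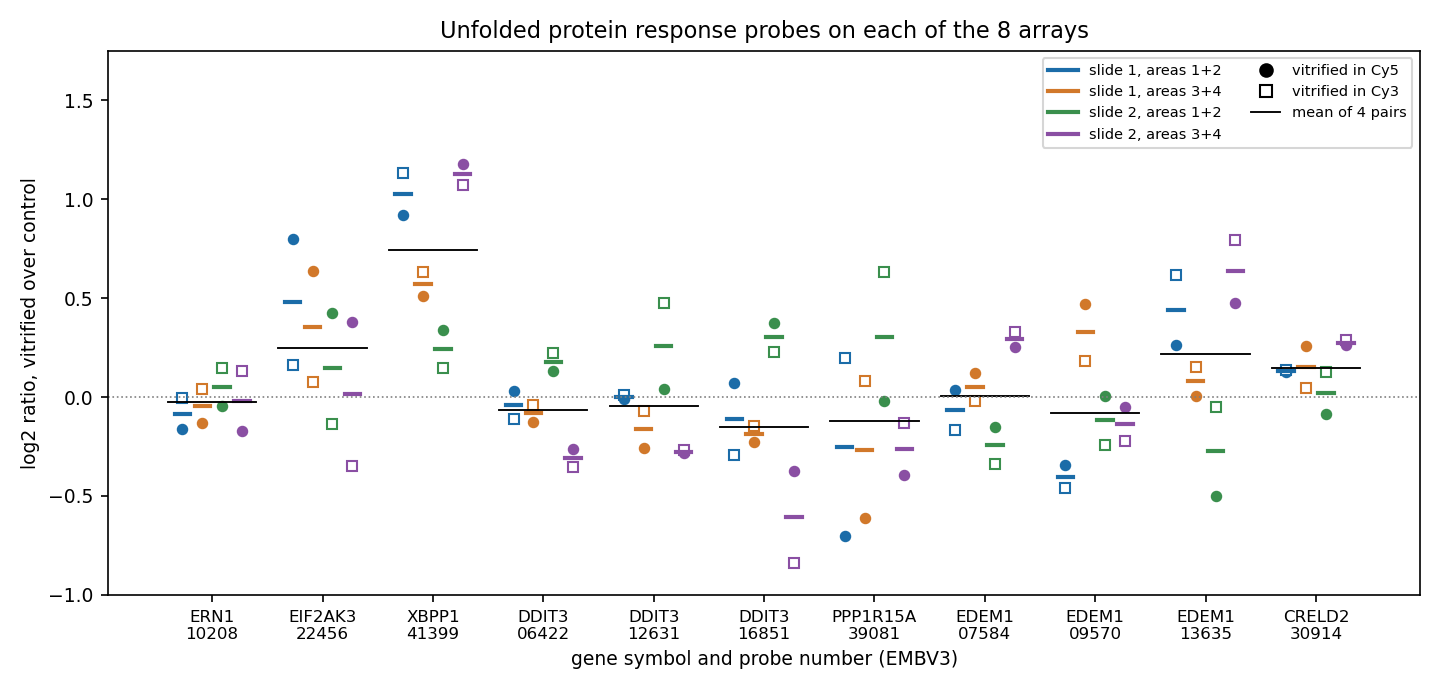
Log2 ratio of vitrified over control (vertical axis) for the 11 probes on each of the 8 arrays. Colours mark the 4 dye-swap pairs, filled circles arrays with the vitrified pool in Cy5, open squares arrays with it in Cy3, coloured bars pair means and black lines the mean of 4 pairs. XBPP1 lies above 0 on all 8 arrays, while the DDIT3 probes lie highest in pair 3 and lowest in pair 4.

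Of the sensors, ERN1, the kinase and ribonuclease that splices XBP1 messenger RNA, was nearly level between the groups. Its ratios in pairs 1 to 4 were -0.08, -0.04, 0.05 and -0.02, a mean of -0.02 ± 0.06 (SD, n = 4 pairs). Its normalized log2 levels (the intensity of 1 channel after scaling between arrays) in pairs 1 to 4 were 7.24, 7.19, 7.35 and 7.25 in vitrified pools, against 7.32, 7.24, 7.30 and 7.27 in control pools, so the groups overlapped. On single arrays the ratio ran between -0.17 and 0.15. A correction that limits extreme local background, an alternative chosen after seeing the data, gave 0.04 in pair 2 and -0.01 in pair 3. The signs of these pairs thus depend on that step.

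EIF2AK3, which encodes PERK, the kinase that slows translation through eIF2α, had ratios of 0.48, 0.36, 0.15 and 0.02 in pairs 1 to 4. Its mean was 0.25 ± 0.21, which is 1.19-fold. Levels in pairs 1 to 4 were 8.98, 8.67, 8.86 and 8.89 in vitrified pools, against 8.50, 8.31, 8.71 and 8.88 in control pools. The vitrified pool was the higher one in every pair, by a margin that was largest in pair 1 and almost nil in pair 4, and the ranges of the groups overlapped. The control pools varied more (SD 0.25) than the vitrified pools (SD 0.13).

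XBPP1 is the symbol the array annotation gives to probe EMBV3_41399. It was the only one of the 9 symbols missing from RefSeq's table for NIAB-ARS_B.indTharparkar_mat_pri_1.0, so no role is given to it here. It had the largest mean ratio of the 11 probes. The ratios in pairs 1 to 4 were 1.03, 0.57, 0.24 and 1.13, a mean of 0.74 ± 0.41, which is 1.67-fold. On single arrays the ratio ran between 0.15 and 1.18.

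The variation in the XBPP1 ratio lay in the control pools. Levels in pairs 1 to 4 were 13.84, 13.76, 13.94 and 13.89 in vitrified pools, against 12.81, 13.19, 13.70 and 12.77 in control pools. The lowest vitrified pool was above the highest control pool in pair means. Single arrays ran from 13.71 to 14.02 in the vitrified channel and from 12.76 to 13.72 in the control channel, and so overlapped. The probe was chosen from this contrast, and the share of all probes that separate in this way was not determined. The SD between pools was 0.08 in vitrified and 0.43 in control pools, so that the control SD was 5.42 times the vitrified SD. Over all tested probes the median SD was 0.0972 in vitrified and 0.0991 in control pools. The probe stayed below the ceiling of the scanner. Its raw intensity ran from 12768 to 16547 in the vitrified channel and from 6863 to 14319 in the control channel, and the brightest gene spot of the arrays reached 53218.

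DDIT3, which encodes the transcription factor CHOP, a target of ATF4 that promotes cell death under lasting stress, was measured by 3 probes that gave one pattern. Probe EMBV3_16851 had ratios of -0.11, -0.18, 0.30 and -0.61 in pairs 1 to 4 and a mean of -0.15 ± 0.37. Probe EMBV3_06422 had -0.04, -0.08, 0.18 and -0.31, a mean of -0.06 ± 0.20, and probe EMBV3_12631 had 0.00, -0.16, 0.26 and -0.28, a mean of -0.05 ± 0.23. All 3 probes stood highest in pair 3 and lowest in pair 4, and each mean was smaller than its spread between pairs. They were dim, with median distances from the background limit of 0.79, 0.34 and 0.56 log2 units in the order given. On slide 2 area 1, in pair 3, EMBV3_06422 and EMBV3_12631 were below that limit in both channels and EMBV3_16851 in the control channel. With the limit that ignores extreme spots, all 3 passed there in both channels.

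For DDIT3 the variation lay in the vitrified pools. Probe EMBV3_16851 had levels of 7.95, 7.87, 8.45 and 7.45 in the vitrified pools of pairs 1 to 4, against 8.06, 8.06, 8.14 and 8.06 in the control pools. The pair means of the control pools were nearly identical, while the vitrified pool of pair 3 lay above all of them and that of pair 4 below all of them. Single arrays ran from 7.30 to 8.47 in the vitrified channel and from 7.86 to 8.26 in the control channel, so the narrow control spread holds for means of dye-swapped arrays and not for single ones. The control arrays stood at 7.89 and 8.22 in pair 1 and at 8.26 and 7.86 in pair 2. Over pair means the SD was 0.41 in vitrified and 0.04 in control pools, so that the vitrified SD was 9.55 times the control SD. Over all tested probes the median of vitrified SD over control SD was 1. With extreme local background limited, this probe's ratio was -0.33 in pair 2 and 0.47 in pair 3, against -0.18 and 0.30. The levels of these pairs may thus depend on that step. The other 2 probes had SDs of 0.23 and 0.21 in vitrified pools and 0.04 and 0.06 in control pools.

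**Figure D2:**
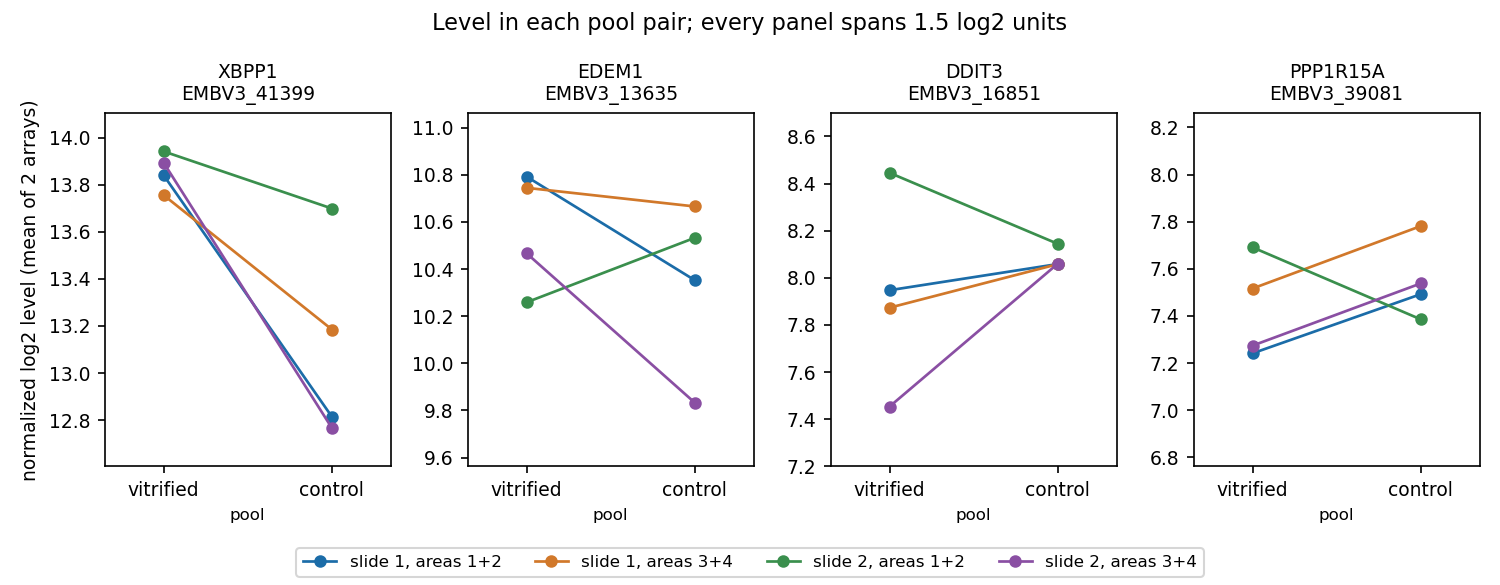
Normalized log2 level (vertical axis, mean of the 2 arrays of a pair) in the vitrified pool (left) and the control pool (right) of each pair, for 4 probes, with lines joining the pools of a pair. XBPP1 is spread among control pools (12.77 to 13.70), whereas DDIT3 probe EMBV3_16851 is spread among vitrified pools (7.45 to 8.45); levels of different probes are not to be set against each other.

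PPP1R15A encodes GADD34, the phosphatase subunit that reverses the phosphorylation of eIF2α and so restores translation. Its ratios were -0.25, -0.27, 0.31 and -0.26 in pairs 1 to 4, a mean of -0.12 ± 0.28. Pairs 1, 2 and 4 were nearly equal, with a mean of -0.26 ± 0.0078 (SD, n = 3 pairs), and pair 3 stood apart. Levels in pairs 1 to 4 were 7.24, 7.52, 7.69 and 7.27 in vitrified pools, against 7.49, 7.78, 7.39 and 7.54 in control pools, so the groups overlapped. The near equality of the pair means hides wide single arrays, which ran from -0.70 to 0.63. It also depends on the background step: with extreme local background limited, the ratios in pairs 1 to 4 were -0.28, -0.19, 0.30 and -0.28.

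EDEM1 encodes a lectin-like protein that hands misfolded glycoproteins to degradation and is a classical target of XBP1. Its 3 probes disagreed. Probe EMBV3_13635, the only one of them above background on all arrays in both channels, had ratios of 0.44, 0.08, -0.27 and 0.63 in pairs 1 to 4, a mean of 0.22 ± 0.40 (1.16-fold). Probe EMBV3_07584 had -0.07, 0.05, -0.24 and 0.29, a mean of 0.01 ± 0.22. Probe EMBV3_09570 had -0.40, 0.33, -0.12 and -0.14, a mean of -0.08 ± 0.30. The first 2 of these were lowest in pair 3 and highest in pair 4, the reverse of DDIT3, while EMBV3_09570 was lowest in pair 1 and highest in pair 2. No single direction can be given for EDEM1.

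For probe EMBV3_13635 of EDEM1 the levels in pairs 1 to 4 were 10.79, 10.75, 10.26 and 10.47 in vitrified pools, against 10.35, 10.67, 10.53 and 9.83 in control pools. The groups overlapped, and the pair 4 ratio came with the lowest of the control levels.

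CRELD2, which encodes a disulphide isomerase-like protein of the endoplasmic reticulum that is induced by stress there, had ratios of 0.13, 0.15, 0.02 and 0.27 in pairs 1 to 4. The mean was 0.15 ± 0.10, which is 1.11-fold, and 7 of 8 arrays lay above 0. Levels in pairs 1 to 4 were 7.41, 7.47, 7.38 and 7.56 in vitrified pools, against 7.28, 7.32, 7.36 and 7.28 in control pools. The lowest vitrified pool was barely above the highest control pool in pair means. This probe, too, was chosen from this contrast, and the share of all probes that separate so was not determined. Single arrays overlapped, from 7.32 to 7.58 in the vitrified channel and from 7.23 to 7.41 in the control channel. With a correction that limits extreme local background (an alternative chosen after seeing the data), the ratio of pair 3 was -0.09 and the mean 0.15 ± 0.17, so the positive sign in every pair depends on that step.

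Pair 3 set the shape of most of these values. There the 3 DDIT3 probes and PPP1R15A lay above 0, and there XBPP1 and EDEM1 probe EMBV3_13635 had their lowest ratios. Without pair 3 the mean was 0.91 ± 0.30 for XBPP1, 0.38 ± 0.28 for EDEM1 probe EMBV3_13635, -0.30 ± 0.27 for DDIT3 probe EMBV3_16851 and -0.14 ± 0.14 and -0.15 ± 0.14 for the other DDIT3 probes (SD, n = 3 pairs). Those of EDEM1 and of all 3 DDIT3 probes moved by more than 1.5 times. Pair 4 weighed on them too: without it the DDIT3 probes EMBV3_06422, EMBV3_12631 and EMBV3_16851 had means of 0.02, 0.03 and 0.00, and EDEM1 probe EMBV3_13635 had 0.08 ± 0.36. Pair 3 holds slide 2 area 1, the array with widely spread negative controls. With extreme local background limited, the pair 3 ratio was 0.47 for DDIT3 probe EMBV3_16851, 0.32 for EMBV3_06422 and 0.30 for EMBV3_12631, and 0.24 for XBPP1, so the sign of each held.

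Markers of the 2 main blastocyst lineages moved with pair 3 as well. The median ratio of 11 trophectoderm genes was 0.34, 0.44, -0.02 and 0.45 in pairs 1 to 4, with 9, 10, 4 and 9 genes above 0. Their summed linear level was 100380, 99469, 88747 and 103930 in vitrified pools, against 75139, 75600, 89077 and 79071 in control pools. The summed level thus separated the groups in pairs 1, 2 and 4 and not in pair 3.

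The median ratio of 6 inner cell mass genes was -0.21, -0.07, 0.04 and -0.45 in pairs 1 to 4, with 1, 2, 4 and 1 genes above 0. Their summed level was 29128, 27208, 26871 and 26550 in vitrified pools, against 36752, 32458, 26488 and 34568 in control pools. The part of the cell mix in the ratios of XBPP1, EDEM1, DDIT3 and PPP1R15A was not tested. In pooled whole embryos, fewer cells of a type and less RNA per cell cannot be told apart.

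Within a pair, the array with the vitrified pool in Cy5 deviated from the pair mean by an amount that holds a constant dye bias and a part that varied from pair to pair. The SD of this deviation over the pairs measures the varying part alone. For XBPP1 the SD of pair means was 0.41 and that of within-pair deviations 0.09, a ratio of 4.35. The ratio of the 2 SDs was 5.27 for EIF2AK3, 3.34, 2.37 and 3.04 for the DDIT3 probes EMBV3_06422, EMBV3_12631 and EMBV3_16851, and 3.53, 8.03 and 6.40 for the EDEM1 probes EMBV3_07584, EMBV3_09570 and EMBV3_13635. It was 2.13 for PPP1R15A, 1.71 for ERN1 and 1.20 for CRELD2, against a median of 1.85 over all tested probes. The constant part was larger than the spread between pairs for 3 probes. The mean deviation was 0.31 for EIF2AK3, -0.31 for PPP1R15A and -0.10 for ERN1, beside SDs of pair means of 0.21, 0.28 and 0.06. For these 3 the arrays of a pair differed by more than the pairs did, and their pair means rest on the dye bias cancelling. For the probes of XBPP1, DDIT3, EDEM1 and CRELD2 the mean deviation was smaller than the SD of pair means, and for EDEM1 this held for probes that contradict each other.

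**Figure D3:**
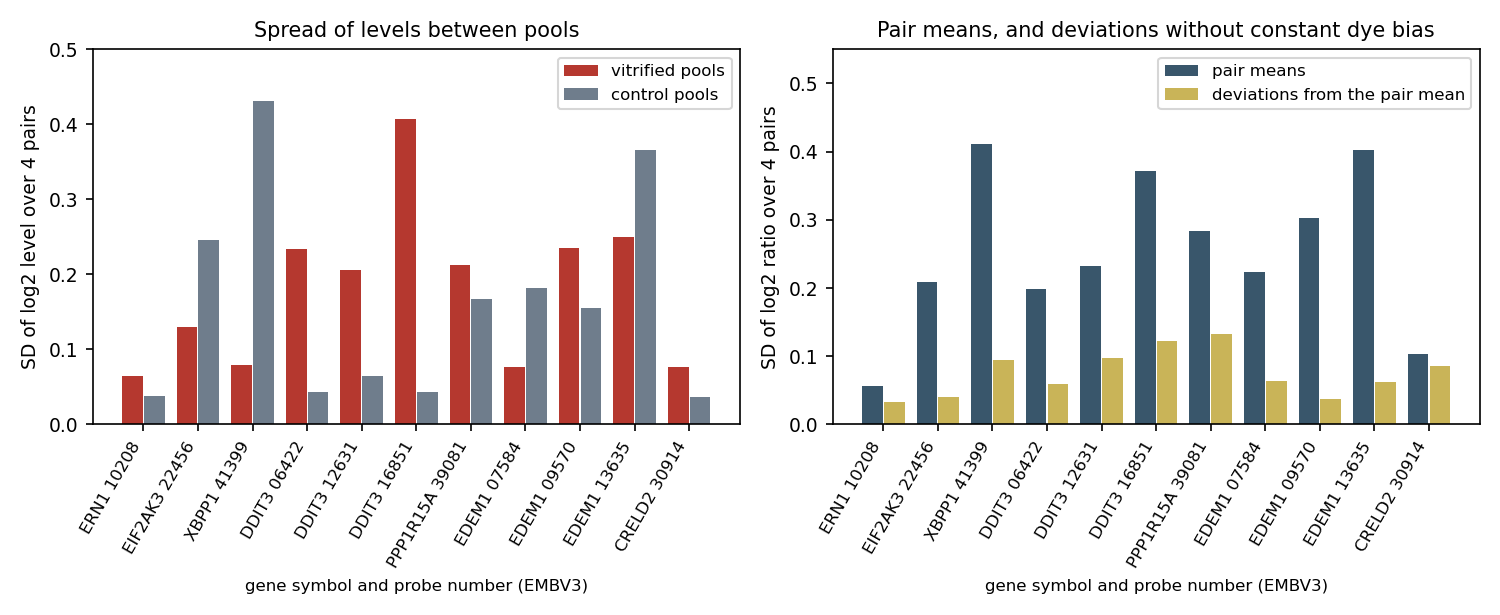
Left, SD of the normalized log2 level over 4 vitrified pools (red) and 4 control pools (grey) for each probe. Right, SD of the log2 ratio over 4 pair means (blue) and of the deviation of the Cy5-oriented array from its pair mean (yellow), which leaves out a constant dye bias. The vitrified bar is below the control bar for XBPP1 (0.08 and 0.43) and above it for all 3 DDIT3 probes.

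The dye itself is independent of the choice of these genes and was tested with limma on 8 arrays with the pair as a random block. A dye effect, red over green, was called for 3 of the 11 probes, against 46.5% of tested probes (16243). For EIF2AK3 it was 0.31 on the log2 scale (limma adjusted p = 0.000569). The ratios were 0.80, 0.64, 0.42 and 0.38 on the arrays with the vitrified pool in Cy5, against 0.16, 0.08, -0.13 and -0.35 on those with it in Cy3. The orientations did not overlap, so an array read alone would have given EIF2AK3 either sign.

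PPP1R15A carried a dye effect of the other sign, -0.31 (limma adjusted p = 0.00407). Its mean ratio was -0.43 with the vitrified pool in Cy5 and 0.19 with it in Cy3. ERN1 had a dye effect of -0.10 (limma adjusted p = 0.0063). For XBPP1 the dye effect was -0.00 (limma adjusted p = 0.97), with mean ratios of 0.74 and 0.75 in the 2 orientations.

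**Figure D4:**
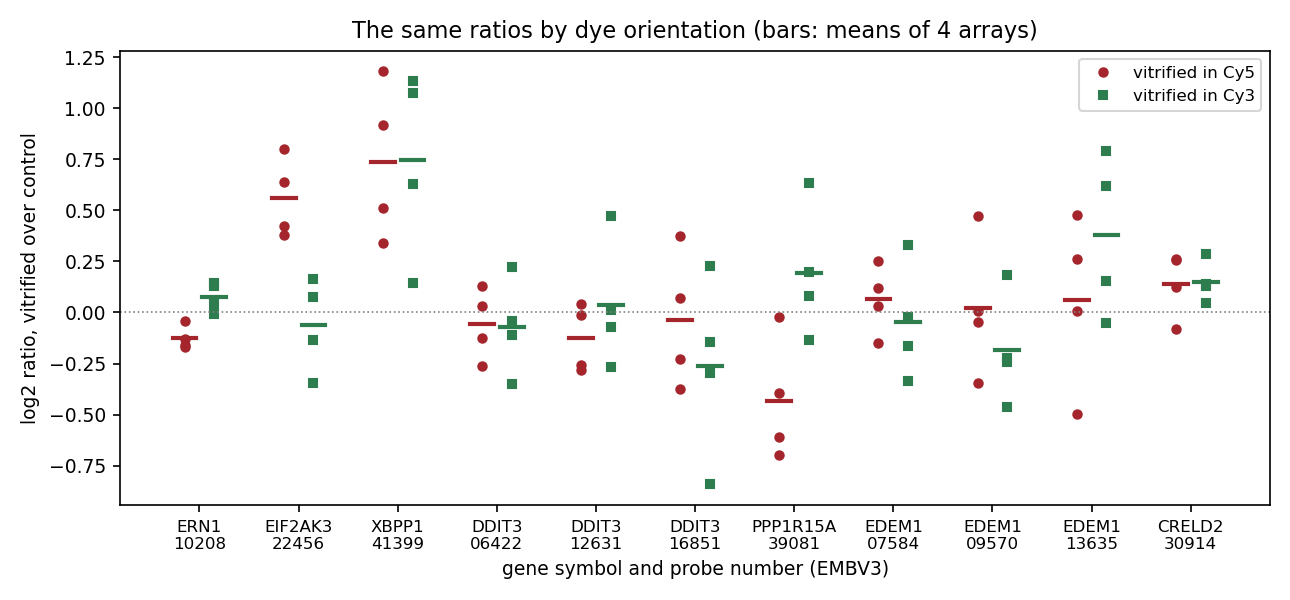
Log2 ratio of vitrified over control (vertical axis) on each array, split by dye orientation: red circles, vitrified pool in Cy5, and green squares, vitrified pool in Cy3, with bars for the means of 4 arrays. The orientations separate for EIF2AK3 (means 0.56 and -0.06) and coincide for XBPP1 (0.74 and 0.75).

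The slides also hold both conditions, and the difference in ratio between them was not used to choose the genes. With limma on the pair means, 0 of 34906 probes differed between slides at an adjusted p under 0.05 (0.00%), none of the 11 among them, and 1401 did so at an unadjusted p under 0.05. EIF2AK3 had the largest slide difference of the 11, with a mean ratio of 0.08 on slide 2, against 0.42 on slide 1, a difference of -0.34 (limma adjusted p = 1). The difference between slides was -0.11 for XBPP1 and -0.00 for DDIT3 probes EMBV3_06422 and EMBV3_16851, whose extremes of pairs 3 and 4 both lie on slide 2.

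The rest of the pathway was read from 4 lists of other genes, with the brightest tested probe per gene. Of 55 listed genes 45 were tested, and 37 had a mean ratio above 0. All 4 pairs lay above 0 for 13 genes (28.9%), against 7.76% of all 13134 named genes, and below 0 for 4 (8.89%), against 6.86%. The lists were chosen with earlier results of these data known, so these shares describe the lists and are no test of the pathway. The median over the 45 genes was 0.09, and over all named genes 0.0029, with 51.9% of them above 0. None of the 45 passed limma's test over all probes in either direction, so what follows are values. Genes of a list were read in the same pools and are not replicates of each other.

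Chaperones and folding factors of the endoplasmic reticulum had the highest median of the 4 lists, 0.33, with 12 of 13 tested genes above 0 and 7 in all 4 pairs. HSPA5, which encodes the chaperone BiP that holds the sensors inactive, had ratios of 0.75, 0.42, 0.77 and 1.45 in pairs 1 to 4, a mean of 0.85 ± 0.43. HSP90B1, the chaperone GRP94, stood at 0.61 ± 0.47 on its brightest probe and at 0.10 on another, and MANF, a secreted factor induced by stress of the endoplasmic reticulum, at 0.61 ± 0.25. The lowest were PDIA4, a disulphide isomerase, at 0.03 ± 0.06 and CDNF, a relative of MANF, at -0.02 ± 0.12. The list's pair medians were 0.30, 0.26, 0.16 and 0.41.

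In the list of degradation genes of the endoplasmic reticulum, to which EDEM1 belongs by function, all 11 tested genes had brightest-probe means above 0. Of these, 3 lay above 0 in all 4 pairs. Another probe had a mean below 0 for SEL1L (-0.17), DERL2 (-0.06), EDEM3 (-0.02) and EDEM2 (-0.0068). For DERL1 and VCP the lowest probe stood at 0.07 and 0.0043. The list's median of 0.11 was 0.06 with the probes of a gene averaged or with median centring. SYVN1, the ubiquitin ligase HRD1, had ratios of 0.74, 0.21, 0.70 and 0.43, a mean of 0.52 ± 0.25. SELS, a selenoprotein of the retrotranslocation complex, stood at 0.38 ± 0.18. SEL1L, the partner of HRD1, stood at 0.27 ± 0.09, with its lowest probe at -0.17. The genes nearest 0 were EDEM3, a relative of EDEM1, at 0.01 ± 0.29 with probes from -0.02 to 0.27, and OS9, a lectin, at 0.01 ± 0.02.

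The other sensors, transducers and activating proteases were close to even, with 8 of 13 tested genes above 0 and a median of 0.01. All 4 pairs lay above 0 for 1 of them and below 0 for 2. DNAJC3, the co-chaperone P58IPK that inhibits PERK, stood at 0.35 ± 0.18, CREB3L2, a membrane-bound transcription factor related to ATF6, at 0.19 ± 0.28, and MBTPS2, a protease that cuts ATF6, at 0.05 ± 0.20. MBTPS1, the other protease, stood at -0.21 ± 0.18 on its brightest probe and at 0.04 on another. ATF4, the transcription factor downstream of PERK, had ratios of -0.32, -0.39, -0.36 and -0.25 in pairs 1 to 4, a mean of -0.33 ± 0.06, and lay below 0 on all 8 arrays.

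The list of targets of the PERK and ATF4 branch holds genes that need not be specific to it. There 6 of 8 tested genes were above 0, with a median of 0.09, and 2 lay above and 2 below 0 in all 4 pairs. HERPUD1, a factor of the degradation machinery, stood at 0.36 ± 0.21, ERO1LB at 0.30 ± 0.45 and ERO1L at 0.19 ± 0.22, both oxidases that form disulphide bonds. TRIB3, a pseudokinase that restrains ATF4, stood at -0.21 ± 0.13 and ASNS, asparagine synthetase, at -0.48 ± 0.25. TRIB3 and ASNS lay below 0 on all 8 arrays, as ATF4 did. The adjusted p of the genes named from the 4 lists was between 0.503 and 0.998 in limma.

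**Figure D5:**
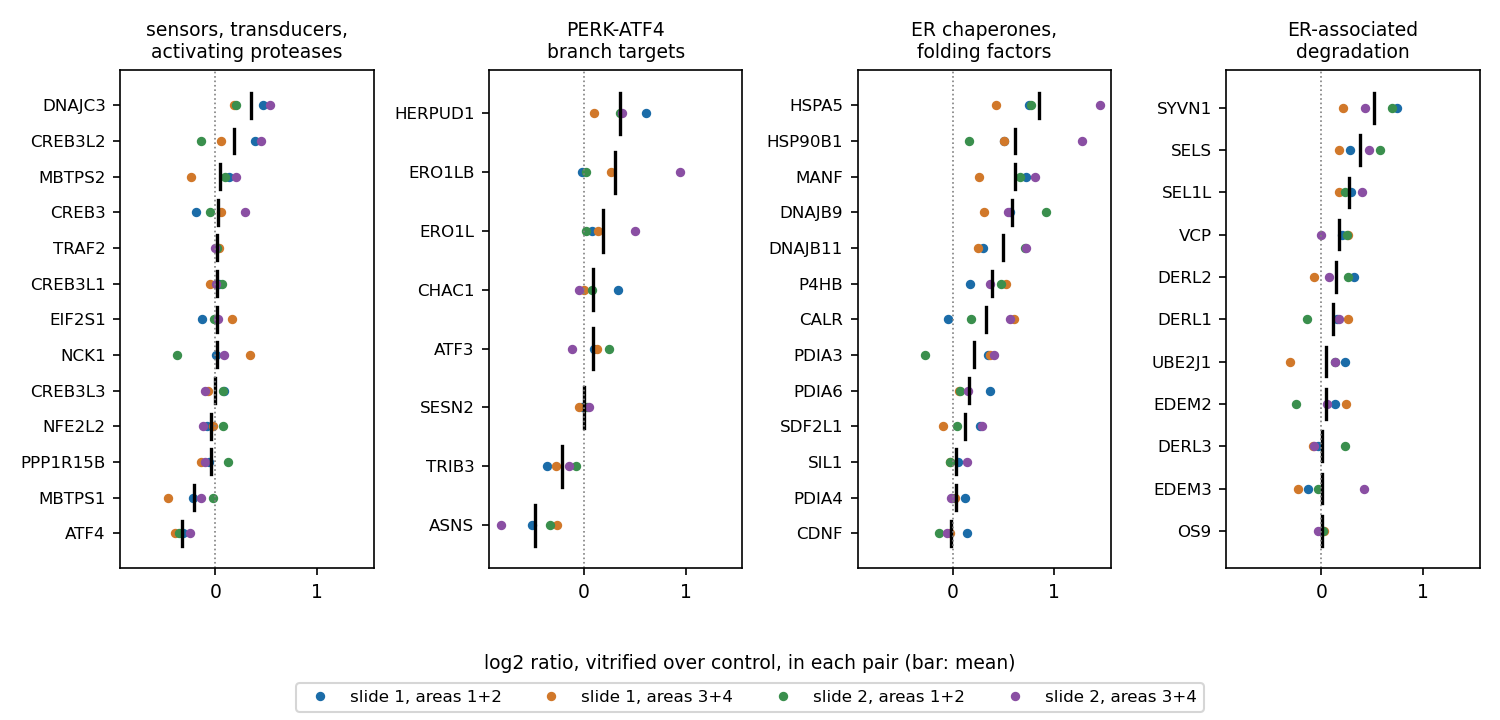
Log2 ratio of vitrified over control (horizontal axis) in each of the 4 pairs (coloured points) with the mean (black bar) for 45 other genes of the pathway in 4 lists, 1 probe per gene. By their brightest probe, chaperones and degradation genes lie mostly right of 0 (12 of 13 and 11 of 11 means). ATF4, TRIB3, ASNS and MBTPS1 lie left of 0 in every pair.

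The genes whose ratio was most like that of XBPP1 were sought among 772 genes with an absolute mean ratio of at least 0.3, by Pearson r over the 8 arrays after the dye term was removed. The 8 arrays hold 4 pairs of pools, so the r is a description. The highest values were 0.985 for ANKRD29, 0.984 for SLC10A1, a bile acid transporter, 0.979 for TMEM50B, 0.979 for PTPN18, a tyrosine phosphatase, and 0.969 for PPL, the cytolinker periplakin, and 32 genes exceeded 0.9. Their means were 0.33 ± 0.48 for ANKRD29, 0.48 ± 0.95 for SLC10A1, 0.45 ± 0.17 for TMEM50B, 0.35 ± 0.26 for PTPN18 and 0.57 ± 0.54 for PPL. All 5 had their lowest ratio in pair 3, as XBPP1 had, which follows from picking them by r over these arrays. For ANKRD29, SLC10A1 and PPL the ratio of pair 3 was below 0.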

How the data were processed

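The deposited scanner files hold spot and local background intensity for both channels, uncorrected and not normalized per the file headers. Each array had 45212 named spots, 43794 of them gene probes and 1418 controls. Intensity was corrected with normexp (offset 50) and normalized within arrays by loess, with control spots at weight 0 and spots flagged as ignored left out, in limma 3.58.1 under R 4.3.3. Levels of single channels were scaled between arrays by Aquantile. The authors' deposited value table holds log2 values, which correlated with the scanner ratios at r of 0.748 to 0.849 across probes, with column medians from -0.0102 to 0.0104. Its direction was therefore taken as vitrified over control. Its normalization and centring are unknown here, and it served as an alternative.

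The arrays were averaged to 4 pair means after turning every array to vitrified over control. Arrays on neighbouring areas correlated at a mean r of 0.819, arrays of 1 labelled replicate number at 0.0988. Those numbers stand in the same dye orientation on both slides, so neighbouring areas were taken as the dye swaps that the series' design text describes. limma's lmFit and eBayes tested the pair means, the slide difference and the dye term over 34906 probes above background on at least 4 of 8 arrays in either condition, with Benjamini-Hochberg adjustment, after a check on simulated data. Symbols come from the platform annotation, which can be old: 21790 probes had 1 symbol, and 12516 of 15229 symbols were in the RefSeq table.

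The genes and lists were chosen with earlier results of these data known. Every probe of the 9 symbols is reported. From each other list the 3 highest and the 2 lowest genes are named, and for XBPP1 the 5 genes of highest r. Alternatives varied the background correction, normalization, filter, replicate unit and probe per gene, and left out each pair or slide. The cap on local background, the robust background limit and the dye test on within-pair deviations were added after seeing the data.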

Additional observations from a re-analysis of the deposited data

Results flagged for a closer look

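In a group of 4 to 10 values, the highest or lowest was set apart where its gap to the nearest other value exceeded Dixon's critical share of the range. Of 18 groups examined 3 were set apart, and chance gives about 0.9 for independent groups. These groups are not independent, since both channels of the same arrays and several probes of the same gene are among them. The count can therefore not be read as an excess over that figure. For PPP1R15A the ratio of pair 3, 0.31, stood apart from the other pairs, which lay between -0.27 and -0.25. Slide 2 area 1 stood apart from the other 7 arrays with 29.5% of probes above background in the vitrified channel and 26.2% in the control channel. With the limit that ignores extreme negative control spots, these were 73.6% and 78.7%.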

How the results depend on the processing

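The mean ratios of the 11 probes moved by less than their spread between pairs in 134 of 135 comparisons with an alternative, and the exception was ERN1, at 0.05 in the authors' deposited table. Leaving out a pair or a slide cannot move a mean by that much, and a changed filter leaves it as it was. The count therefore bears only on the changes of background correction, normalization and value table. The median over the 7 genes, 0.15, was 0.21 with a normexp offset of 10, 0.25 over the probes above background on all arrays in both channels, 0.0805 on slide 2 alone and 0.0485 with the probes of a gene averaged. Leaving out each pair gave 0.0818 to 0.186. The median over the 11 probes, -0.02, was 0.25 under the stricter filter, which kept 3 of the 11 probes. That filter gave 6811 dye calls, against 16243, from 11279 probes. Dye was called for 5 of the 11 probes with the capped background (19991 of 34906 probes), for 5 by a test of the within-pair deviations (17353 probes) and for 4 with median centring (14925 probes). The median of the degradation genes, 0.11, was 0.0554 with probes averaged, 0.0528 in the deposited table, 0.0631 with median centring, 0.161 under the stricter filter and 0.188 on slide 1 alone. That of the listed PERK and ATF4 targets, 0.0888, was 0.0421 with median centring and 0.137 under the stricter filter, and leaving out pair 1 gave 0.0485. That of the chaperones, 0.33, was 0.44 under the stricter filter and 0.45 without pair 1. Calls between vitrified and control embryos were 0 in all settings but the 8 arrays with the pair as a random block (29 calls, 13 higher and 16 lower, none of the 11), and 0 with arrays of 1 replicate number averaged (smallest adjusted p 0.119, 4806 at an unadjusted p under 0.05). Without the cap, normexp raised the median log2 Cy5 value to 8.31 and 8.26 on slide 1 area 4 and slide 2 area 1, against 6.90 to 7.06 on the other arrays. This compresses ratios of dim probes on those 2 arrays and can shift their means in pairs 2 and 3, also in sign, as for ERN1 and CRELD2. The 4 pairs limit the precision throughout. Apart from the changes given here, the causes were not tested.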
